A study of Mus musculus with 6 samples.

Results

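Asb genes encode proteins with ankyrin repeats and a SOCS box, and 6 of them that are known from striated muscle (Asb2, Asb10, Asb11, Asb12, Asb14 and Asb15) are described here among 18193 genes measured in isolated mouse heart cells. Among the probe sets annotated to a gene alone, 1 was chosen by its mean measured value over the 6 arrays, the highest being taken, and all 6 genes had one. The genes themselves were put together with earlier results of these arrays known, among them that Asb14 and Asb15 had some of the largest adult minus neonatal differences. Their levels are therefore a description, and the p-values beside them are not independent evidence. Total RNA was hybridised to 6 one-colour Affymetrix arrays, 2 in each of 3 groups, all from C57BL/6J mice. Adult cardiomyocytes came from male mice of 8 weeks and were released by Langendorff perfusion, which passes enzyme through the coronary vessels. Neonatal cardiomyocytes and neonatal cardiac fibroblasts came from hearts of both sexes at postnatal day 1 and were dissociated and separated on Percoll, a density medium. Per the labels, trypsin and collagenase were used throughout, and fibroblasts were expanded on a dish and examined with the mitochondrial dye TMRM for remaining cardiomyocytes. Age, sex and isolation method differ together between adult and neonatal cells and cannot be told apart. In comparisons with fibroblasts, cell type and the expansion on a dish also differ together and cannot be told apart. Adult fibroblasts are not analysed here.

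In an ASB protein the ankyrin repeats hold the substrate, and the SOCS box binds elongin B and elongin C. These recruit the scaffold Cul5 with the RING protein Rnf7, which completes an E3 ubiquitin ligase that marks the substrate for destruction. Skeletal and cardiac muscle express several family members. The best studied is Asb2, which directs the breakdown of filamins, the actin crosslinkers of the Z-disc and the cell cortex.

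The Asb genes lie on different chromosomes, apart from Asb11 and Asb12, which share the X chromosome. RefSeq (GRCm38.p6) places Asb2 on chromosome 12 from 103321142 to 103356001, Asb10 on chromosome 5 from 24532697 to 24540978, and Asb14 on chromosome 14 from 26894590 to 26915257. It places Asb15 on chromosome 6 from 24528144 to 24573164, Asb11 on chromosome X from 164436953 to 164459170, and Asb12 on chromosome X from 95469527 to 95558004. RefSeq promoter windows, from 250 bases before to 50 bases after a transcript start, were found for all 6 genes. Asb2 had 2, at an upstream and an internal start. The Asb12 window belongs to a start at 95478129, which is also internal, since this minus-strand gene extends upstream to 95558004. Because these genes were all higher in cardiomyocytes than on the fibroblast arrays, the windows were searched on both strands for the MEF2 consensus and the CArG box (sites read by muscle transcription factors), for the E-box CAGCTG, for CATTCC (the MCAT element) and for AAGGTCA (a half-site of the ERR receptors). The windows that held a MEF2 or CArG match, with the second Asb2 start and Asb15 for comparison, read as follows 5′ to 3′, with matches in capitals.
Asb2 upstream start, chr12:103355952-103356251, minus strand: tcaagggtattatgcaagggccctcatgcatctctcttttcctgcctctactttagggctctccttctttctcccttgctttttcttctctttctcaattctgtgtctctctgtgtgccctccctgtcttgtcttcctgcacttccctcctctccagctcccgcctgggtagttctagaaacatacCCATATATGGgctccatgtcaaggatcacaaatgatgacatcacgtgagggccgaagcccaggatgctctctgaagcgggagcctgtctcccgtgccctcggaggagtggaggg
Asb2 internal start, chr12:103338341-103338640, minus strand: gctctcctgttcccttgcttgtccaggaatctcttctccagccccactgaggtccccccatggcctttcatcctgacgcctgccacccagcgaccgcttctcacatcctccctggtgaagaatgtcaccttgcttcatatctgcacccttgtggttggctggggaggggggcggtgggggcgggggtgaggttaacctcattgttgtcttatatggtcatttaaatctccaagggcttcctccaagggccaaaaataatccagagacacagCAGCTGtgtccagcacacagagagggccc
Asb12, chrX:95478080-95478379, minus strand: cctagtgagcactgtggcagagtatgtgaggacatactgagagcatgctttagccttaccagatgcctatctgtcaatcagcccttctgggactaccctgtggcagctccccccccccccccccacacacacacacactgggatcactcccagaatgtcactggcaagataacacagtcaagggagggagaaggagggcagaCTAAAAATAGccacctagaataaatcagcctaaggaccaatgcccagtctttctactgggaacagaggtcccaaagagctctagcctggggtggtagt
Asb14, chr14:26894364-26894663, plus strand: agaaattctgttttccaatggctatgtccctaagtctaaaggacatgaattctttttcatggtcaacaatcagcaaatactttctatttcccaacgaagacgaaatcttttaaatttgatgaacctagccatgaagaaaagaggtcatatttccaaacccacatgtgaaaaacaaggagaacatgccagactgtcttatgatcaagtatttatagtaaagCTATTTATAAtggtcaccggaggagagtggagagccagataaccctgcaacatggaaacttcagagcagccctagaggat
Asb15, chr6:24527894-24528193, plus strand: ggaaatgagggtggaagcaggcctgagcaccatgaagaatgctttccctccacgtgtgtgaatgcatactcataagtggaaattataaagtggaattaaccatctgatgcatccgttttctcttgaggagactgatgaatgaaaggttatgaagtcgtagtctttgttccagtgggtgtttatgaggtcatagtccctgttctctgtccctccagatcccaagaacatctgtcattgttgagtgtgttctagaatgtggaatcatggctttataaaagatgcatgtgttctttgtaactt

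The MEF2 consensus was found in 2 of these genes' 7 windows, starting 48 bases before the internal Asb12 start and 30 bases before the Asb14 start. It was present in 3.19% of all 32841 windows of that length. The CArG box was found in 1 of the 7 windows, 64 bases before the upstream Asb2 start, and in 1.63% of all windows. CAGCTG occurred in the internal Asb2 window and CATTCC in the Asb10 window, against 16.3% and 14.7% of all windows. AAGGTCA occurred in 0 of the 7 and in 4.72% of all windows. The general E-box CANNTG, which includes CAGCTG and is not capitalised, was present in 7 of 7 and in 72.3% of all windows. These matches describe letters in a window and do not show that a factor binds there.

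Before the values, the arrays were set against marker genes, because on both neonatal replicate 1 arrays the title contradicts the source name, cell type and description: the cardiomyocyte array is titled as fibroblasts and the fibroblast array as cardiomyocytes. Groups here follow the source name. The median log2 RMA value (the authors' background-corrected, quantile-normalized scale) of 10 cardiomyocyte markers such as Myh6 and Ttn reached 14.14 and 14.04 for adult cardiomyocytes (replicate 1, then 2) and 14.02 and 13.54 for neonatal cardiomyocytes, against 7.56 and 10.78 on the fibroblast arrays. The median of 10 fibroblast markers was 7.77 and 9.58 on adult and 10.28 and 9.43 on neonatal cardiomyocyte arrays, against 12.58 and 11.86 on fibroblast arrays. Fibroblast replicate 2 thus carried more cardiomyocyte transcript than replicate 1, and fibroblast replicate 1 more leukocyte transcript (median of 10 markers 11.91 against 9.39, with 6.88, 8.51, 7.16 and 5.64 on the adult and neonatal cardiomyocyte arrays). Skeletal muscle myosins Myh1, Myh2 and Myh4, with Tnnt3, Myod1 and Myog, lay between 3.46 and 5.41 on every array. The other 2 of the 8 skeletal muscle markers, Acta1 and Ckm, which the heart also expresses, rose in adult cardiomyocytes over fibroblasts, by 5.20 and 6.63. Acta1 measured 13.05 and 11.72 in adult cardiomyocytes, 11.20 and 10.26 in neonatal cardiomyocytes, and 6.64 and 7.73 on fibroblast arrays. The median of 8 endothelial markers also ran higher in both cardiomyocyte groups, at 8.42 and 9.56 in adult and 9.02 and 8.15 in neonatal cardiomyocytes, against 6.57 and 7.76 on fibroblast arrays. That of 6 smooth muscle and pericyte markers was 8.96 and 10.47 in adult cardiomyocytes, 9.64 and 9.05 in neonatal cardiomyocytes, and 9.40 and 10.10 on fibroblast arrays. Among these, the pericyte gene Rgs5 measured 11.78 and 12.86 in adult cardiomyocytes, 10.88 and 6.35 in neonatal cardiomyocytes, and 3.32 and 6.95 on fibroblast arrays. Of the 6, only Rgs5 and Myh11 had a higher mean in adult cardiomyocytes than on fibroblast arrays, and the other 4 had a lower one. The part of these cells in the Asb values was not tested. The atrial markers Myl7, Myl4, Nppa and Sln had a median of 8.01 on adult replicate 1 and 12.93 on adult replicate 2, so these arrays differed in atrial transcript, against 13.91 and 14.09 on neonatal cardiomyocyte and 8.13 and 11.23 on fibroblast arrays. In these bulk samples, fewer cells of a type and less RNA per cell cannot be told apart.

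All 6 Asb genes had their highest mean in adult cardiomyocytes, an intermediate mean in neonatal cardiomyocytes and their lowest mean on fibroblast arrays. They differed in how much of that span was already present at birth. By their means, Asb2, Asb11 and Asb12 had the larger part of their span in newborn cardiomyocytes, while Asb10, Asb14 and Asb15 had the smaller part. In log2 units the order differed, since Asb15 lay 2.60 above fibroblasts in newborn cardiomyocytes and Asb12 1.94. Expressed as a share of the log2 difference between adult cardiomyocytes and fibroblasts, the neonatal cardiomyocyte mean reached 92.6% for Asb2, 73.4% for Asb12 and 63.4% for Asb11. It reached 33.5% for Asb15, 23.7% for Asb10 and 17.3% for Asb14. Taken array by array, the share ran from 84.5% to 101% for Asb2, from 68.4% to 78.4% for Asb12 and from 41.7% to 85.0% for Asb11. It ran from 28.2% to 38.9% for Asb15, from 6.52% to 40.9% for Asb10 and from 8.60% to 26.0% for Asb14. RMA gives no detection call, and the fibroblast values of Asb12, Asb14 and Asb15 were as low as 3.76, 3.81 and 2.96, so their differences from fibroblasts may be understated and their shares at birth are approximate. The grouping of the genes by this share is a description made after the values were seen.

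**Figure D1:**
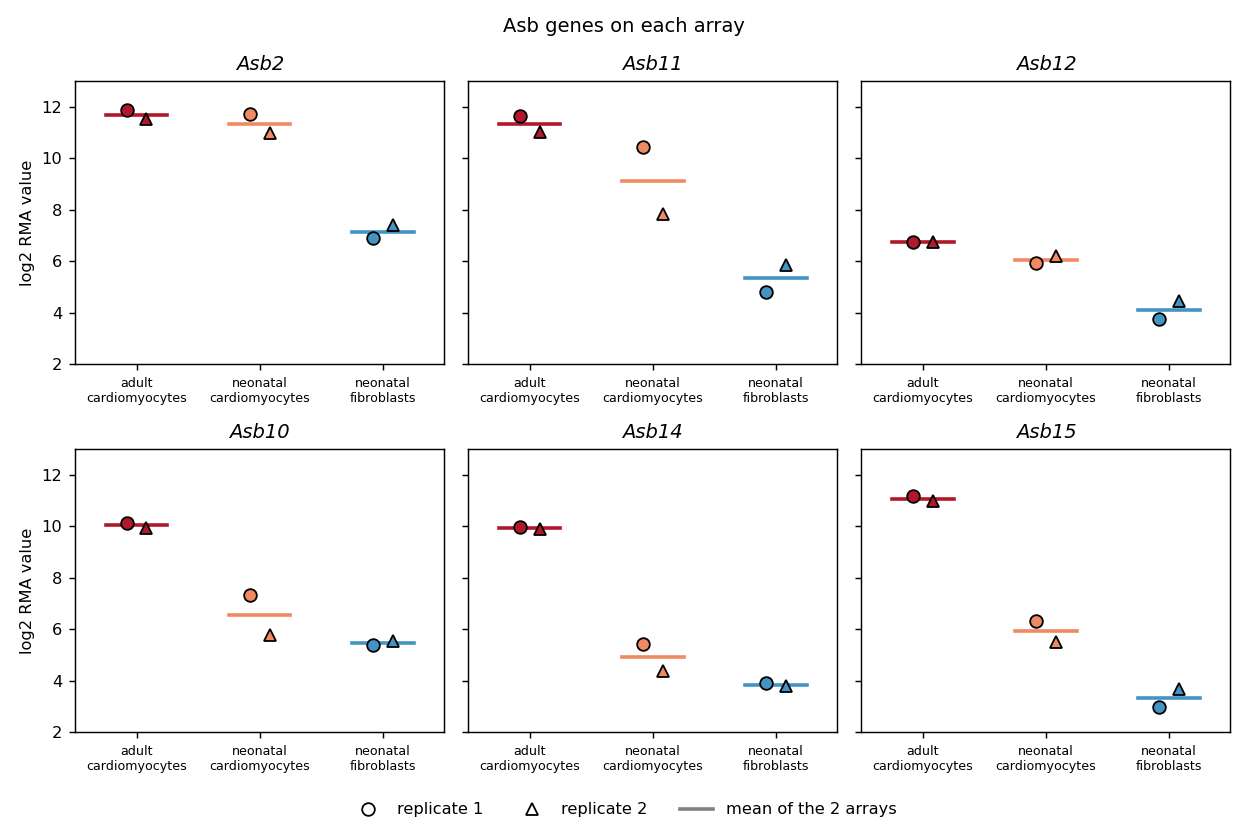
Log2 RMA value (vertical axis) of the 6 Asb genes on each array, by group (horizontal axis); circles are replicate 1, triangles replicate 2 and bars the mean of the 2 arrays. Asb2 sits at 10.98 or above on all 4 cardiomyocyte arrays, whereas Asb14 reaches 9.87 and Asb15 10.96 or more on the adult arrays and both stay at 6.33 or below on the others.

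Asb2 was the gene whose neonatal level lay nearest to its adult level. It measured 11.86 and 11.51 in adult cardiomyocytes, 11.72 and 10.98 in neonatal cardiomyocytes, and 6.91 and 7.40 on fibroblast arrays. The adult and neonatal cardiomyocyte arrays overlapped, and both sets lay above the fibroblast arrays. The adult minus neonatal difference was 0.34 ± 0.33 log2 units (limma SE), with an adjusted p of 0.570. Asb2 rose in neonatal cardiomyocytes over fibroblasts by 4.20 ± 0.33, or 18.3-fold (limma, adjusted p = 0.0424). With the replicate number as a block the adjusted p was 0.0537, and limma then called 0 of all genes in that comparison. In that fit 5 of the 6 Asb genes had an unadjusted p under 0.05, and the share over all genes was not computed. The call also ended without either adult array (0.158), without neonatal cardiomyocyte replicate 1 (0.167) or without fibroblast replicate 1 (0.0916).

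Asb11 has been studied in zebrafish, where it promotes turnover of a Notch ligand and keeps progenitor cells dividing. It measured 11.64 and 11.03 in adult cardiomyocytes, 10.44 and 7.84 in neonatal cardiomyocytes, and 4.82 and 5.86 on fibroblast arrays. The 3 groups did not overlap, but the neonatal cardiomyocyte arrays were 2.60 apart, the widest replicate gap among the 6 genes. The array with the higher Asb11 also had the higher median of cardiomyocyte markers, by 14.02 to 13.54, and whether that plays a part was not tested. The adult minus neonatal difference of 2.20 ± 0.90 had an adjusted p of 0.233, and the neonatal cardiomyocyte minus fibroblast difference of 3.80 ± 0.90, or 13.9-fold, one of 0.132. Without neonatal cardiomyocyte replicate 2 the second difference was 5.10, with an adjusted p of 0.0426.

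Asb12 was a dim signal on this platform, with a mean of 5.64 over the 6 arrays. It measured 6.76 on both adult arrays, 5.92 and 6.19 on neonatal cardiomyocyte arrays, and 3.76 and 4.46 on fibroblast arrays. The groups did not overlap. The adult minus neonatal difference was 0.71 ± 0.28 (adjusted p = 0.220 in limma), and the neonatal cardiomyocyte minus fibroblast difference 1.94 ± 0.28, or 3.85-fold (adjusted p = 0.0596). Without fibroblast replicate 2, the array of that pair with more cardiomyocyte transcript, the second difference was 2.29. Without fibroblast replicate 1 it was 1.60.

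Asb15, which has been studied in muscle cell lines for a part in differentiation and protein turnover, had the widest span. It measured 11.18 and 10.96 in adult cardiomyocytes, 6.33 and 5.50 in neonatal cardiomyocytes, and 2.96 and 3.67 on fibroblast arrays. No array of 1 group overlapped another group. Its adult minus neonatal difference was 5.16 ± 0.38, or 35.7-fold, and ranked 4 from the top among 18193 genes. Its adult cardiomyocyte minus fibroblast difference was 7.76 ± 0.38. The testis-associated Asb17 lay between 3.18 and 3.42 on all arrays, and with the fibroblast values of Asb15 that low, no exact fold is given. Neonatal cardiomyocytes exceeded fibroblasts by 2.60 ± 0.38, with an adjusted p of 0.0609 in limma. This difference was 3.02 without neonatal cardiomyocyte replicate 2 and 2.19 without replicate 1.

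Asb14 had an adult minus neonatal difference close to that of Asb15, with lower levels in both. It measured 9.98 and 9.87 in adult cardiomyocytes, 5.43 and 4.37 in neonatal cardiomyocytes, and 3.89 and 3.81 on fibroblast arrays. The adult minus neonatal difference was 5.02 ± 0.37, or 32.5-fold, and ranked 6 among 18193 genes. Its neonatal values were low, with replicate 2 close to the fibroblast arrays, so this fold is approximate and may be understated. Neonatal cardiomyocytes exceeded fibroblasts by 1.05 ± 0.37 (adjusted p = 0.254).

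Asb10, a family member with a reported link to glaucoma in humans, followed the same order. It measured 10.14 and 9.92 in adult cardiomyocytes, 7.33 and 5.76 in neonatal cardiomyocytes, and 5.38 and 5.56 on fibroblast arrays. Neonatal cardiomyocyte replicate 2 lay close to the fibroblast arrays, while replicate 1 lay well above them. Asb10 rose by 3.48 ± 0.52 in adult over neonatal cardiomyocytes, or 11.1-fold (limma, adjusted p = 0.0471). The adjusted p was 0.246 when adult replicate 1 was left out and 0.188 when replicate 2 was. It was 0.0551 in the absence of neonatal cardiomyocyte replicate 2, 0.0927 in that of either fibroblast array, and 0.0604 with all probe sets tested, so the call ended in each of these fits. The neonatal cardiomyocyte minus fibroblast difference was 1.08 ± 0.52, with an adjusted p of 0.401 in limma, and without neonatal cardiomyocyte replicate 2 it was 1.87, with 0.0497.

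**Figure D2:**
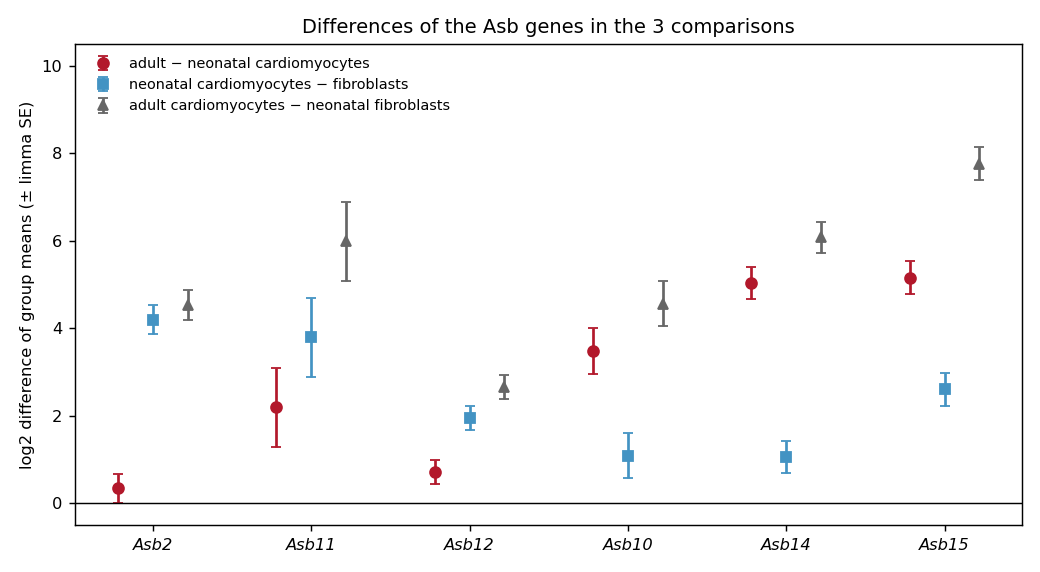
Log2 difference of group means (vertical axis) for the 6 Asb genes in the 3 comparisons; points are limma estimates and bars ± 1 SE. For Asb2 the adult minus neonatal point (0.34) is the small one and for Asb14 and Asb15 (5.02 and 5.16) it is larger than the neonatal cardiomyocyte minus fibroblast point.

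Between adult and neonatal cardiomyocytes 3 of the 6 genes passed the threshold (adjusted p under 0.05 over all genes), namely Asb10, Asb14 and Asb15, where 1.08% of all genes were called higher and 1.22% lower. An unadjusted p under 0.05 was reached by 3 of the 6, as by 11.1% of all genes in that direction. The last 2 were known to pass when the genes were chosen, so nothing is read from that count. All 6 means were higher in adult cells, with a median difference of 2.84 against 0.09 over all genes, and the arrays of 5 did not overlap, as was true in that direction of 33.9% of all genes. The 3 calls became 0 without either adult array or without neonatal cardiomyocyte replicate 2, settings in which 0 of all genes were called. In neonatal cardiomyocytes over fibroblasts Asb2 alone of the 6 passed, where 0.676% of all genes were called higher and 0.143% lower. An unadjusted p under 0.05 was reached by 5 of the 6, against 8.95% of all genes, and the arrays of all 6 genes did not overlap, against 22.3% of all genes. The median difference was 2.27 against −0.02 over all genes. Between adult cardiomyocytes and neonatal fibroblasts all 6 rose, with a median of 5.28 against 0.09, where 10.1% of all genes were called higher and 11% lower. The arrays of 37.8% of all genes did not overlap in that direction, and 17.7% had an unadjusted p under 0.05. Their adjusted p in limma lay between 0.00411 and 0.0149. Without adult replicate 1 the count was 0 (adjusted p between 0.0613 and 0.108), and without adult replicate 2 it was 3, the lost genes being Asb10, Asb11 and Asb12. Without fibroblast replicate 1 Asb11 was lost (0.0712). The 3 comparisons share arrays, so their counts are not separate observations.

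Without the 2 arrays whose titles contradict their other labels, every difference of the 6 genes kept its sign, with 0 calls in limma between adult and neonatal cardiomyocytes (4 at unadjusted p under 0.05), 0 between the neonatal cell types (4 at unadjusted p under 0.05) and 6 between adult cardiomyocytes and fibroblasts. Over all 18193 genes these fits called 0, 0 and 717, so the counts of 0 hold for every gene. The share of all genes with an unadjusted p under 0.05 was not computed for these fits. The neonatal cardiomyocyte minus fibroblast differences were then 3.58 for Asb2, 1.98 for Asb11, 1.84 for Asb15, 1.73 for Asb12, 0.56 for Asb14 and 0.21 for Asb10. The adult minus neonatal differences were 5.57 for Asb15, 5.55 for Asb14, 4.26 for Asb10, 3.50 for Asb11, 0.70 for Asb2 and 0.57 for Asb12. Had the arrays been grouped by title, the array with cardiomyocyte markers at 7.56 would count as cardiomyocytes, and all 6 neonatal cardiomyocyte minus fibroblast differences would be negative, between −1.82 and −0.22. The Asb2 adult minus neonatal difference would be 2.74.

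Asb10 and Asb15 had a second probe set each. For Asb10 the other probe set gave the same order, with 8.91 and 8.58 in adult cardiomyocytes, 5.97 and 4.39 in neonatal cardiomyocytes, and 4.04 and 4.13 on fibroblast arrays. Its adult minus neonatal difference was 3.56, close to the 3.48 of the probe set used. For Asb15 the other probe set measured 8.41 and 4.95 on the adult arrays, 3.75 and 3.38 on the neonatal cardiomyocyte arrays, and 3.56 and 3.56 on the fibroblast arrays. The adult arrays were 3.46 apart on it, against 0.22 on the probe set used. The neonatal cardiomyocyte minus fibroblast difference was 0.01 on it. With the mean of both Asb15 probe sets the adult minus neonatal difference was 4.14, with an adjusted p of 0.0515. Which stretch of the transcript each probe set covers was not analysed here.

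**Figure D3:**
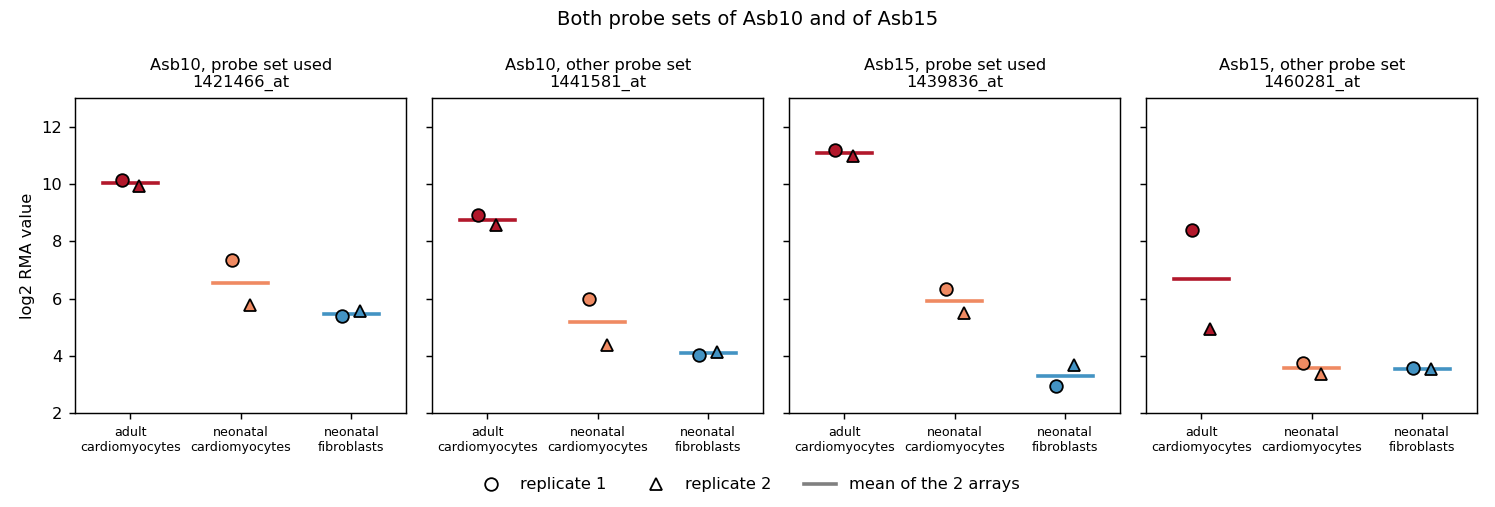
Log2 RMA value (vertical axis) on both probe sets of Asb10 and both of Asb15, by group; circles are replicate 1, triangles replicate 2 and bars the mean of the 2 arrays. The Asb10 probe sets run in parallel, while the second Asb15 probe set separates the adult arrays (8.41 and 4.95).

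Among the other 12 Asb genes, 1 rose between adult and neonatal cardiomyocytes and 0 fell, with a median difference of 0.30. Over all genes 1.08% were called higher there and 1.22% lower. The gene that rose was Asb18, at 7.66 and 7.21 in adult against 5.76 and 5.82 in neonatal cardiomyocytes and 5.43 and 5.35 on fibroblast arrays (1.65 ± 0.21, adjusted p = 0.0346). On its second, dimmer probe set the adult minus neonatal difference was 0.63. Asb5, which is also known from skeletal muscle, had another order of group means. It measured 9.78 and 9.50 in adult cardiomyocytes, 5.34 and 6.67 in neonatal cardiomyocytes, and 6.55 and 8.30 on fibroblast arrays. Its adult minus neonatal difference of 3.64 ± 0.71 had an adjusted p of 0.0718, and on the neonatal side its fibroblast mean was the higher (difference −1.42 ± 0.71, adjusted p = 0.419, arrays overlapping). Asb4, a gene of vascular and placental cells, had its highest mean in neonatal cardiomyocytes. It measured 7.19 and 7.79 in adult cardiomyocytes, 8.21 and 8.11 in neonatal cardiomyocytes, and 5.12 and 6.12 on fibroblast arrays, and its second probe set gave the same order of means. Of the 12, 0 were called between the neonatal cell types in limma, with 2 at unadjusted p under 0.05 and a median of 0.02. Over all genes 0.676% were called higher there and 0.143% lower. With so few genes called in either comparison, counts of 0 or 1 say little about these 12. Between adult cardiomyocytes and fibroblasts Asb18 (2.04), Asb4 (1.87), Asb8 (1.83) and Asb13 (1.31) rose and Asb3 (−0.68) fell. In that comparison 10.1% of all genes were called higher and 11% lower. For Asb13 the other probe sets gave 0.07 and 0.56, and for Asb18 the other gave 0.91. The second, dimmer Asb3 probe set gave −0.24, while those of Asb4 and Asb8 gave 1.90 and 1.93.

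**Figure D4:**
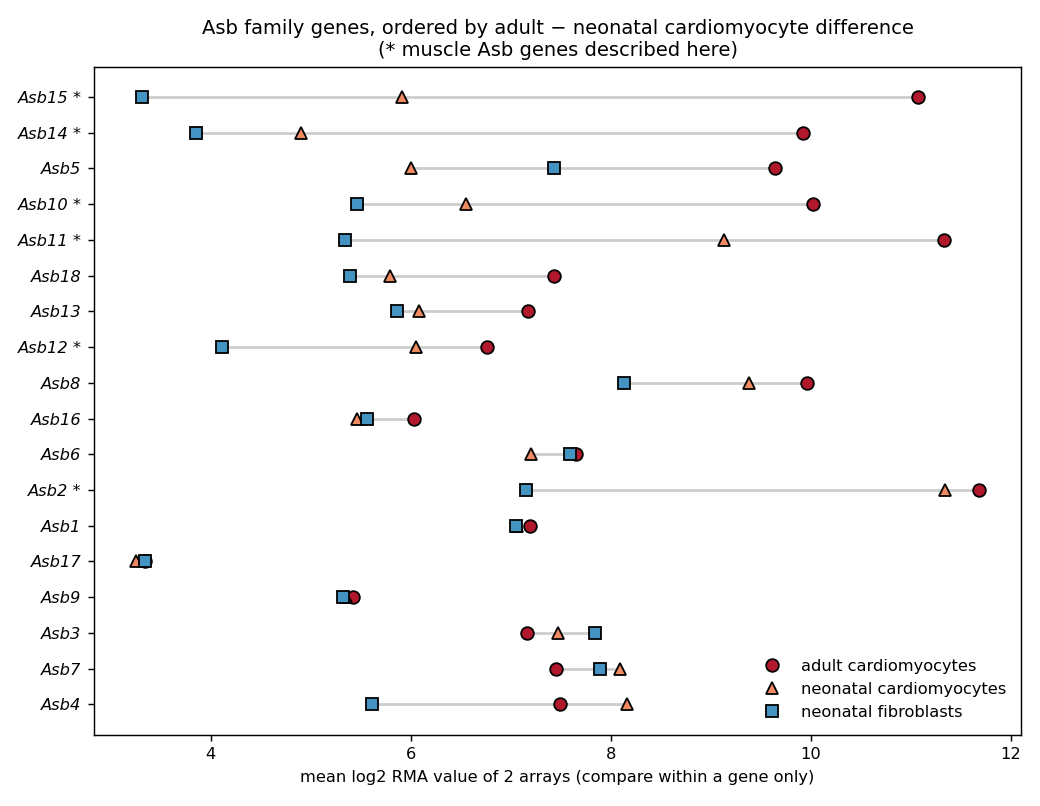
Mean log2 RMA value of the 2 arrays of a group (horizontal axis) for all 18 Asb genes measured, ordered from the top by the adult minus neonatal cardiomyocyte difference; circles are adult cardiomyocytes, triangles neonatal cardiomyocytes and squares neonatal fibroblasts. Asb15 and Asb14 have the largest adult minus neonatal differences of the family, and Asb5 is the one of the top 5 whose fibroblast mean exceeds its neonatal cardiomyocyte mean.

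The ligase parts that ASB proteins share were taken as a list, together with genes that act on cullins more generally. The 13 measured genes were those for elongins, cullin 5, RING proteins, Nedd8 and further factors that act on cullins or their neddylation. Of these, 0 were called between adult and neonatal cardiomyocytes in limma (3 at unadjusted p under 0.05). Their median was −0.17 against 0.09 over all genes. Cul5 itself measured 9.18 and 8.40 in adult cardiomyocytes, 8.36 and 8.23 in neonatal cardiomyocytes, and 8.11 and 7.88 on fibroblast arrays, a difference of 0.50 ± 0.30 between the first pair of groups (adjusted p = 0.367). The neonatal cell types gave 0 calls in limma and 1 unadjusted p under 0.05, with a median of 0.07. Between adult cardiomyocytes and fibroblasts Arih2, a ligase that works on neddylated cullin 5, rose by 0.69, and Cand1, which exchanges substrate receptors on cullins, fell by 1.89, with a median of −0.24 over the list. With so few genes called in the first 2 comparisons over the whole array, the counts of 0 say little about the list, and 2 of 13 in the last stand beside 10.1% higher and 11% lower over all genes.

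A list of 14 measured genes for reported substrates and partners of ASB proteins was taken next. The filamin gene Flna, an Asb2 substrate, measured 7.84 and 8.37 in adult cardiomyocytes, 9.83 and 10.35 in neonatal cardiomyocytes, and 11.57 and 11.08 on fibroblast arrays. It fell by 3.22 ± 0.31 in adult cardiomyocytes against fibroblasts (limma, adjusted p = 0.00780), and its adult minus neonatal difference of −1.98 ± 0.31 had an adjusted p of 0.0537. The muscle filamin gene Flnc differed by −0.08 ± 0.22 between adult and neonatal cardiomyocytes (adjusted p = 0.844, arrays overlapping). Des, the muscle intermediate filament gene, measured 11.98 and 11.32 in adult cardiomyocytes, 11.44 and 10.70 in neonatal cardiomyocytes, and 7.90 and 7.74 on fibroblast arrays. Like Asb2 it rose in neonatal cardiomyocytes over fibroblasts, by 3.25 ± 0.35 (adjusted p = 0.0424), as the only gene of the list called there. Between adult and neonatal cardiomyocytes 0 rose, and Psrc1, a spindle protein gene, fell by 3.86 ± 0.43 (adjusted p = 0.0284). Between adult cardiomyocytes and fibroblasts Des, Chchd3 and Flnc rose, and Psrc1, Skp2, Flna, Ckb and Tnfrsf1b fell. The list's medians were −0.02, −0.23 and 0.18 in the order adult minus neonatal, neonatal cardiomyocyte minus fibroblast and adult minus fibroblast.

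Other SOCS box genes gave 0 calls in limma among 18 between adult and neonatal cardiomyocytes, with 8 at unadjusted p under 0.05 and a median of 0.08. Socs3, an inhibitor of cytokine signalling, had the largest difference of that list, 3.95 ± 0.75 (adjusted p = 0.0705), at 12.78 and 12.66 in adult against 9.79 and 7.76 in neonatal cardiomyocytes. The neonatal cell types gave 0 calls in limma, with 5 at unadjusted p under 0.05 and a median of −0.23. Between adult cardiomyocytes and fibroblasts Socs3 (3.92), Cish (2.22) and Neurl2 (1.84), the last a SOCS box gene of muscle, rose, and Wsb1 (−1.95), Lrrc41 (−0.91) and Socs4 (−0.89) fell, with a median of −0.03.

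Among 16 measured ubiquitin ligase genes of muscle outside the SOCS box family, Fbxo31 (2.77) and Fbxo32 (1.98) rose between adult and neonatal cardiomyocytes, and 0 fell. Fbxo32, which encodes atrogin-1, measured 10.41 and 11.00 in adult cardiomyocytes, 8.64 and 8.81 in neonatal cardiomyocytes, and 6.27 and 6.25 on fibroblast arrays. In neonatal cardiomyocytes over fibroblasts Klhl41 (5.10), Rnf207 (5.07) and Fbxo32 (2.47) rose. Klhl41, a kelch protein gene of the sarcomere, and Rnf207 had adult minus neonatal differences of 0.61 ± 0.40 (limma, adjusted p = 0.401) and −0.75 ± 0.51 (0.422). Like most genes, they had no call there, and the Rnf207 difference had the opposite sign to that of Asb2. Between adult cardiomyocytes and fibroblasts 9 of the 16 rose and Trim32 fell by 1.09. Those that rose were Trim54 (5.82), Klhl41 (5.71), Fbxo32 (4.45), Trim63 (4.39), which encodes the sarcomeric ligase MuRF1, Rnf207 (4.32), Fbxo31 (3.49), Klhl40 (3.38), Kbtbd12 (2.19) and Rnf123 (1.47). The median of the list was 0.35 for adult minus neonatal, 0.81 for neonatal cardiomyocyte minus fibroblast and 1.83 for adult minus fibroblast. Counts of this list and of the substrate and SOCS box lists stand beside the shares of all genes called higher and lower. In the same order of comparisons these were 1.08% and 1.22%, 0.676% and 0.143%, and 10.1% and 11%. As for the Asb genes, calls in these lists between adult and neonatal cardiomyocytes were 0 without either adult array or without neonatal cardiomyocyte replicate 2, and those between neonatal cell types were 0 in the replicate block. Those between adult cardiomyocytes and fibroblasts were 0 without adult replicate 1.

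For each of the 6 genes the 5 genes with the nearest profile were found, by Euclidean distance between the 6 array values after each gene's mean was subtracted. Nearest to Asb2 were Nlrp10 at a distance of 0.34 log2 units, the calmodulin-binding transcription factor gene Camta1 (0.38), the kinase gene Alpk2 (0.55), the nuclear receptor gene Esrrg (0.64) and the myosin chaperone gene Unc45b (0.73). Nlrp10 measured 8.42 and 8.21 in adult cardiomyocytes, 8.14 and 7.81 in neonatal cardiomyocytes, and 3.40 and 4.06 on fibroblast arrays. Nearest to Asb12 were Dcaf5 (0.20), Ift81 (0.27), the pyruvate dehydrogenase phosphatase gene Pdp1 (0.32), the ATP synthase gene Atp5g1 (0.35) and Apoo (0.43). Nearest to Asb11 were Pdk4, a kinase that restrains glucose oxidation (1.07), Frmd5 (1.15), Yipf7 (1.17), Car14 (1.20) and the immediate early gene Fos (1.31).

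All genes listed as nearest, to any of the Asb genes, had their highest mean in adult cardiomyocytes, which their selection by profile favours. Asb14 was nearest to Timp4, an inhibitor of matrix metalloproteinases (0.80), the noncoding transcript Plet1os (0.97), the carboxylesterase gene Ces1d (0.99), Lrg1 (1.01) and Lrtm1 (1.24). Timp4 measured 9.18 and 9.66 in adult cardiomyocytes, 5.54 and 3.58 in neonatal cardiomyocytes, and 3.40 and 3.53 on fibroblast arrays. Asb15 was nearest to Rpl3l, the muscle paralog of a ribosomal protein gene (1.53), the immediate early gene Fosb (2.03), the calcium store gene Hrc (2.16), Timp4 again (2.19) and the lipid droplet gene Plin5 (2.27). Asb10 was nearest to Plbd1 (0.54), the amino acid transporter gene Slc36a2 (0.59), Gstk1 (0.61), Fmo1 (0.67) and the coagulation factor gene F13a1 (0.84). All profiles share the same 6 arrays.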

How the data were processed

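The deposited table holds 1 log2 expression value per probe set and array, made by the authors with RMA (background correction, quantile normalization and probe summary) per the submitters' processing notes. No version of RMA is stated in the labels, nor whether it was run on all 6 arrays at once. RMA gives no detection call, log2 differences of dim genes can be compressed, and the number of arrays limits the precision.

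Of 45101 probe sets, 64 were controls. GEO's platform annotation named 34945 to 1 gene, 932 to several and left 9160 unnamed, and 0 symbols differed from RefSeq. Each gene was represented by its probe set of highest mean, giving 18193 genes. All 6 arrays entered 1 limma 3.58.1 fit (R 4.3.3, lmFit and eBayes) with 3 group means, 3 residual degrees of freedom and 2.18 prior ones. Tests were two-sided, with Benjamini-Hochberg adjustment over all genes and a threshold of 0.05. The fit was tested on simulated data. The labels do not say that arrays of 1 group stem from separate preparations. Arrays of a group did differ in marker levels, such as Myl7 at 8.01 and 12.98 in adult cardiomyocytes. How much of the spread behind each p-value stems from separate animals was not tested.

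The Asb genes and the gene lists (12 other Asb genes, 14 ligase genes, 15 substrates, 18 other SOCS box genes, 20 other muscle ligases and the marker lists) were chosen with earlier results of these data known. Genes named are the 6 Asb genes, the 5 nearest profiles of each, and from each list other than the markers the called genes and up to 4 others by size of difference. Marker lists are given mainly by their medians. Cul5 and Asb17 were added after their values were seen. Listed genes with no probe set annotated to them alone were left out as unmeasured. The differences between replicates 1 and 2 correlated across genes at 0.27 (adult and neonatal cardiomyocytes), 0.21 (adult cardiomyocytes and fibroblasts) and 0.18 (neonatal groups). The main fit did not pair the arrays by replicate number, which entered as a block only in an alternative fit. Promoter sequences came from RefSeq, GRCm38.p6.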

Additional observations from a re-analysis of the deposited data

How the results depend on the processing

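The results were recomputed in 15 other ways and in 1 more chosen after seeing the data, the removal of both neonatal replicate 2 arrays. All 6 genes kept the sign of their adult minus fibroblast difference under every alternative run. Between adult and neonatal cardiomyocytes 5 genes kept their sign under every alternative run. The exception was Asb2, whose difference lay between −0.032 and 0.70 when single arrays were left out, the lowest without neonatal cardiomyocyte replicate 2, and was −0.032 without both neonatal replicate 2 arrays. With the groups that the titles give, the neonatal cardiomyocyte minus fibroblast differences turned to −0.61 for Asb2, −0.87 for Asb10, −1.82 for Asb11, −0.22 for Asb12, −0.49 for Asb14 and −0.77 for Asb15, since the replicate 1 arrays trade places. Under that grouping 1 gene was called between adult and neonatal cardiomyocytes (Asb14), 0 between neonatal cell types, and 1 between adult cardiomyocytes and fibroblasts (Asb14). Over all genes that grouping gave 114, 0 and 137 calls.

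Leaving out 1 array gave 0 to 3 calls between adult and neonatal cardiomyocytes, 0 to 4 between neonatal cell types and 0 to 6 between adult cardiomyocytes and fibroblasts. Calls between adult and neonatal cardiomyocytes were 0 when both neonatal replicate 1 or both replicate 2 arrays were left out. In these fits the only residual comes from the adult pair, and a lone array is assumed to vary as that pair does. Of the 6 genes 4 then had an unadjusted p under 0.05 in either fit. Between neonatal cell types the 1 call became 0 in both of these settings, in the replicate block and with all probe sets tested, where 0 of all probe sets were called. Testing all probe sets also ended the Asb10 call between adult and neonatal cardiomyocytes (adjusted p = 0.0604 in limma). The 1 call between neonatal cell types became 2 with genes of a mean of at least 6 (which leaves out Asb12) or with median centring, and 3 with an intensity trend in eBayes. The replicate block changed no other call of the 6 genes. In limma 5 of the 6 had an unadjusted p under 0.05 between neonatal cell types with the replicate block, and 0 under the titles' grouping. The share of all genes with an unadjusted p under 0.05 was not computed for any alternative fit, so nothing is read from such counts. Over all genes the count of calls moved from 418 to between 0 and 607 (adult and neonatal cardiomyocytes), from 149 to between 0 and 437 (neonatal cell types) and from 3829 to between 0 and 6196 (adult cardiomyocytes and fibroblasts). For changes of a call beyond these settings the cause was not tested.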
